A study of Mus musculus with 6 samples.

Results

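Gene expression was compared between 2 mouse gliomas of one tumor line, 1 grown in the brain of an old host and 1 in the brain of a young host. The members are the rows of the tumor FPKM table that reached at least 1 FPKM (fragments per kilobase of transcript, scaled to library depth) in 1 or more of its 3 tumor libraries, which were 14335 of 46951 rows. Each row was described by the log2(FPKM + 1) difference, old-host minus young-host, and a difference of 1 or more in size is called 2-fold here. Each group was 1 library, so no difference has a replicate check, no test between the hosts exists, and every value describes these libraries.

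The old-host tumor, the young-host tumor and a tumor of an old host in the group labelled NMN-before-Tumor all came from glioma-initiating cells of the line 7080, injected into brains of C57BL/6 mice and collected when the mice had symptoms. Glioma-initiating cells (GICs) are tumor cells able to seed a new glioma, and GIC cultures set up again from such tumors, labelled 7080X1, gave 1 library for each of the same 3 host groups. All tumors therefore share 1 injected line and differ in the host. The hosts' ages and sex, the number of mice behind a library, the site of injection and how the tissue was dissected are not given in the labels. NMN usually stands for nicotinamide mononucleotide, a precursor of NAD+, and the labels do not spell it out.

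A glioma in the brain is a mixture of tumor cells with the neurons, oligodendrocytes, vessels, microglia and blood-derived cells of its host. Tumor cells at the margin grow among intact brain tissue, microglia and macrophages can make up a large share of the mass, and poorly perfused parts switch on hypoxia genes and angiogenic factors. Genes that the cultured glioma cells also express can report on either source, while markers such as hemoglobin, immunoglobulin or neuropeptide genes usually come from host cells.

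Depth was estimated from low values of single-transcript genes, and 1 FPKM over 1 kb of effective transcript length stood for 11.3 fragments in the old-host and 14.9 in the young-host tumor. That value then has a 95% Poisson interval of 0.505 to 1.78 FPKM in the old-host and 0.558 to 1.65 FPKM in the young-host tumor, which covers counting error only. Genes known from glioma cells were checked first. Sox2, Olig2 and Nes, transcription factors and an intermediate filament of glioma stem cells, had 79.4, 163 and 35.4 FPKM in the old-host tumor and 76.96, 198 and 40.5 FPKM in the young-host tumor. Proliferation was read from Mki67, at 27.8 FPKM in the old-host against 35.6 FPKM in the young-host tumor. The tumor suppressors Trp53 and Nf1 had 59.4 and 21.2 FPKM in the old-host tumor and 59.998 and 19.4 FPKM in the young-host tumor. The growth factor receptor Egfr had 19.7 FPKM in the old-host and 15.3 FPKM in the young-host tumor. Pdgfra shares its row with a microRNA gene, and that row had 70.2 FPKM in the old-host and 72.6 FPKM in the young-host tumor.

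Of all measured rows, 229 (1.60%) were 2-fold higher and 144 (1.005%) 2-fold lower in the old-host tumor. These called rows were uneven in kind. Of 11960 protein-coding rows, counted with rows that repeat a symbol, 78 were higher and 51 lower. Pseudogenes gave 76 and 25 of 430 rows, small RNA genes 16 and 43 of 99, and immunoglobulin genes 26 and 1 of 35. Among the 373 called rows, 152 had a value of 0 in either library. With at least 20 estimated fragments required in 1 of the libraries, 99 rows were 2-fold higher and 52 2-fold lower. Among the 11951 measured rows that name 1 protein-coding gene, 0.653% were 2-fold higher and 0.427% 2-fold lower, and 47.8% had a difference above 0. The median difference of these coding rows was -0.01, and the middle 90% lay between -0.45 and 0.52. These shares are the background for the gene lists described next.

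Neuron markers differed by brain region. Striatal projection neurons, the GABAergic output cells of the striatum, had all 13 measured markers higher in the old-host tumor, with a median difference of 0.80 and 5 of them 2-fold higher. Their summed level was 145 FPKM in the old-host and 88.3 FPKM in the young-host tumor. Penk, the enkephalin precursor of indirect-pathway striatal neurons, had 22.4 FPKM in the old-host and 7.11 FPKM in the young-host tumor. Tac1, the substance P precursor of the direct pathway, had 8.25 FPKM in the old-host and 1.96 FPKM in the young-host tumor, and Pdyn, the dynorphin precursor of the same cells, 2.96 FPKM in the old-host and 0.681 FPKM in the young-host tumor. Both dopamine receptor genes were among the 5, Drd1 at 2.09 FPKM in the old-host against 0.431 FPKM in the young-host tumor and Drd2 at 1.89 FPKM in the old-host against 0.426 FPKM in the young-host tumor. Of the 13, Drd2 alone reached 1 FPKM only in the old-host tumor, so the filter fixed its direction. With no filter, all 15 listed striatal genes with a row of their own were higher. The most abundant striatal marker, the signaling inhibitor Ppp1r1b (DARPP-32), was closer, at 45.6 FPKM in the old-host against 36.2 FPKM in the young-host tumor. In bulk tissue, fewer cells of a type and less RNA per cell cannot be told apart, for these and for every other cell type.

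Cortical excitatory neurons did not share that direction. Of their 15 measured markers 7 were higher and 8 lower, none 2-fold, and the median was -0.11. Neurod1, also listed, shares its row with Cerkl and is not among the 15. That row had 1.05 FPKM in the old-host, 4.63 FPKM in the young-host and 1.02 FPKM in the NMN-before old-host tumor, a difference of -1.46. Camk2a, the synaptic kinase with the highest level in the list, had 43.1 FPKM in the old-host and 37.8 FPKM in the young-host tumor, and the vesicular glutamate transporter Slc17a7 had 23.9 FPKM in the old-host and 28.9 FPKM in the young-host tumor. The summed cortical level was 133 FPKM in the old-host, 137 FPKM in the young-host and 284 FPKM in the NMN-before old-host tumor. The old-host and young-host tumors were thus close in cortical markers and apart in striatal ones.

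Hypothalamic neuron markers were at low levels, from few fragments. Of 24 listed genes 8 were measured, 7 of them higher and 5 of them 2-fold higher, with a median of 1.33. Of these 8, 4 reached 1 FPKM in the old-host tumor alone, so the filter itself fixed their direction, and their count and median are no support for a difference. Over all 22 listed genes with a row of their own and with no filter, 16 were higher, 2 lower and 4 equal. Oxt, the oxytocin precursor (chromosome 2, 130576173 to 130577054, GRCm38, plus strand), had 9.56 FPKM in the old-host tumor, an estimated 40.7 fragments, and was listed at 0 in the young-host and the NMN-before old-host tumor. The vasopressin precursor Avp had 3.302 FPKM in the old-host and 0.3104 FPKM in the young-host tumor, and 0.127 FPKM in the NMN-before old-host tumor. Baiap3, a vesicle-release protein, followed the same order with 4.197 FPKM in the old-host and 0.4997 FPKM in the young-host tumor, and 0.206 FPKM in the NMN-before old-host tumor. Trh, the thyrotropin-releasing hormone precursor, did not, with 2.43 FPKM in the old-host and 0.107 FPKM in the young-host tumor but 3.29 FPKM in the NMN-before old-host tumor. Oxt, Avp and Baiap3 were therefore high in 1 library of 3, and Trh in both old-host libraries.

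Markers of GABAergic interneurons were higher for 11 of 14, with a median of 0.29. The GABA-synthesizing enzymes and the transporter that fills vesicles with GABA, which striatal neurons also express, led the list: Gad2 differed by 1.73, Slc32a1 by 1.54 and Gad1 by 1.03. The interneuron peptide Sst had 27.7 FPKM in the old-host and 18.2 FPKM in the young-host tumor. Thalamic and midbrain excitatory markers were higher for 7 of 10, none 2-fold, with a median of 0.22. Pou4f1, a transcription factor of the habenula and midbrain, differed most, at 6.18 FPKM in the old-host against 3.45 FPKM in the young-host tumor. Monoaminergic, cholinergic, hippocampal and cerebellar lists had 4 or fewer measured members each. In them Lmx1b, a factor of serotonin and dopamine neurons, had 2.45 FPKM in the old-host and 5.47 FPKM in the young-host tumor, and Wfs1, an endoplasmic reticulum protein abundant in hippocampal field CA1, had 11.3 FPKM in the old-host and 6.27 FPKM in the young-host tumor.

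**Figure D1:**
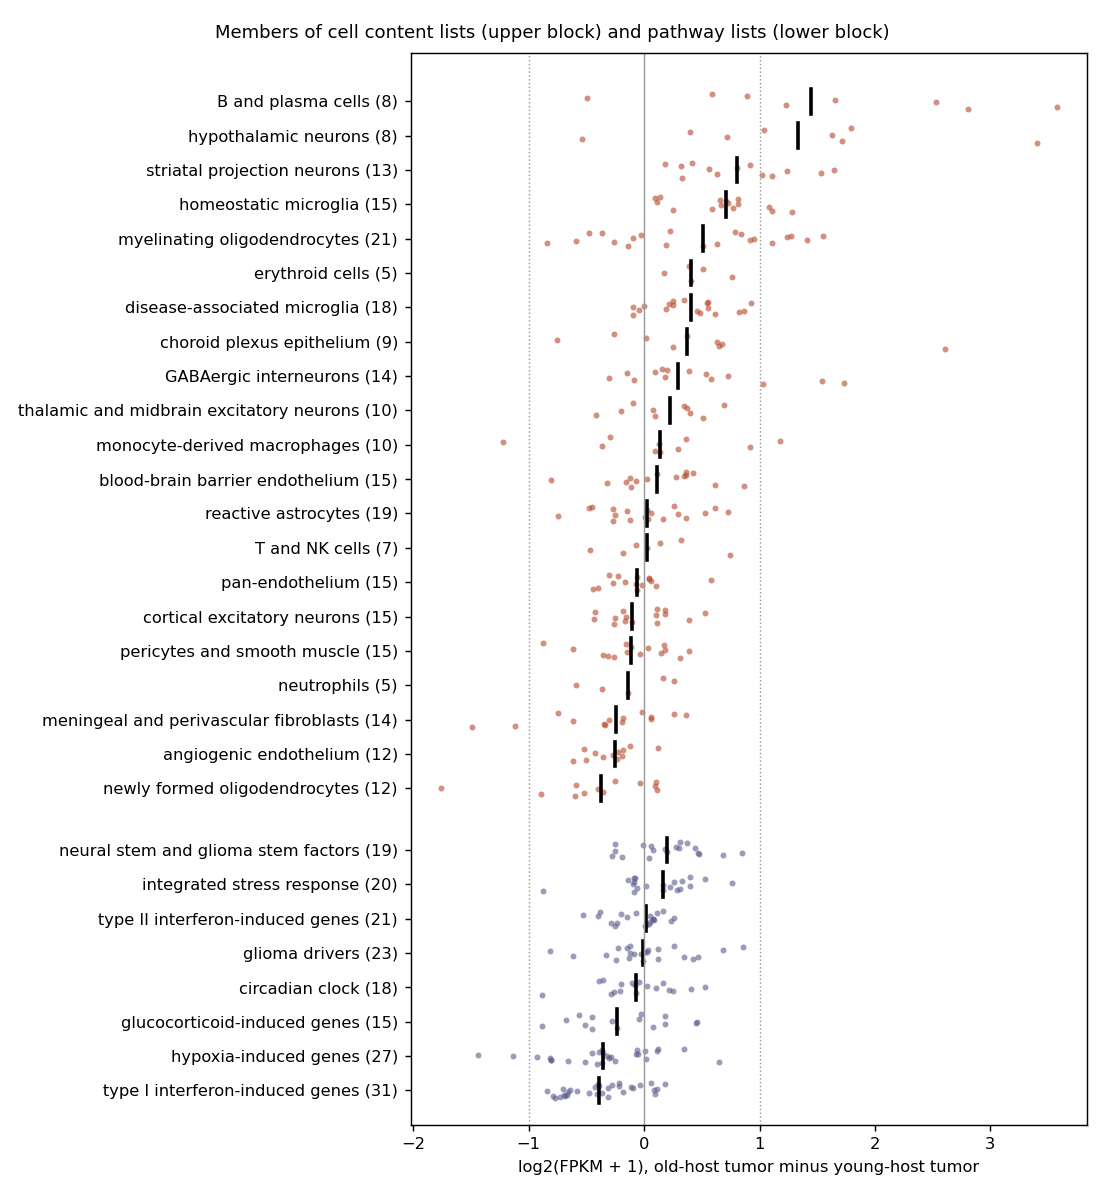
Differences in log2(FPKM + 1), old-host minus young-host tumor (x axis), of each measured member (points) of cell content lists (upper block) and pathway lists (lower block) with 5 or more measured members, whose number is in brackets. Black bars are list medians and dotted lines mark 2-fold. The medians run from 1.44 for B and plasma cells, whose 8 measured genes include immunoglobulin constant regions, to -0.39 for type I interferon-induced genes.

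Microglia, the resident macrophages of the brain, had higher homeostatic markers in the old-host tumor without exception. All 15 were higher, 3 of them 2-fold, with a median of 0.71 and a summed level of 192 FPKM in the old-host against 122.6 FPKM in the young-host tumor. Of the 15, 1 reached 1 FPKM in the old-host tumor alone. The 3 were G protein-coupled receptors of resting microglia. P2ry12 differed by 1.28, P2ry13 had 3.67 FPKM in the old-host and 1.17 FPKM in the young-host tumor, and Gpr34 had 3.13 FPKM in the old-host and 0.946 FPKM in the young-host tumor.

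Disease-associated microglia markers, the genes that microglia switch on around plaques and lesions, were higher for 15 of 18 with a smaller median of 0.41, none 2-fold. Gpnmb, a lysosomal glycoprotein, had 71.3 FPKM in the old-host and 37.2 FPKM in the young-host tumor, and the lectin Clec7a had 16.7 FPKM in the old-host and 8.69 FPKM in the young-host tumor. In the GIC cultures, tumor cells grown without host tissue, Gpnmb had 7.51 FPKM from the old host and 83.05 FPKM from the young host, so its differences in tumors and cultures have opposite signs. Apoe, a lipid carrier that tumor cells and astrocytes also express, was the most abundant of the list at 3671 FPKM in the old-host against 3915 FPKM in the young-host tumor.

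Markers of monocyte-derived macrophages split. Of 10 measured, 7 were higher, with a median of 0.13. Arg1, the arginase of alternatively activated macrophages, had 0.133 FPKM in the old-host, 1.65 FPKM in the young-host and 2.86 FPKM in the NMN-before old-host tumor, a difference of -1.22. Lyz2, lysozyme, differed by 1.18 in the other direction, and Chil3, a chitinase-like lectin, had 1.57 FPKM in the old-host and 0.365 FPKM in the young-host tumor. The border-associated macrophage list had 3 of 12 members measured, and its Ms4a7, a membrane protein, had 9.44 FPKM in the old-host and 8.36 FPKM in the young-host tumor. Dendritic cell and neutrophil lists were low throughout, with summed levels of 12.6 and 16.8 FPKM in the old-host tumor and 14.3 and 15.6 FPKM in the young-host tumor. All 7 mast cell markers stayed under 1 FPKM in every tumor.

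Immunoglobulin rows that differed were mostly higher in the old-host tumor. Immunoglobulins are the antibodies of B and plasma cells, assembled from a variable segment and a constant region. Of 35 measured immunoglobulin rows, 31 were higher in the old-host tumor, 2 lower and 2 at 0 in both, with 26 of the 31 past 2-fold. Of the 35, 21 reached 1 FPKM in the old-host tumor alone, so the filter fixed their direction. With no filter, of 424 immunoglobulin rows 80 were higher, 10 lower and 334 equal. The summed level of the 35 was 219 FPKM in the old-host, 20.4 FPKM in the young-host and 88.6 FPKM in the NMN-before old-host tumor. Among constant regions, the kappa light chain Igkc had 77.02 FPKM in the old-host and 5.55 FPKM in the young-host tumor, and the IgM heavy chain Ighm 34.6 FPKM in the old-host and 4.097 FPKM in the young-host tumor. The class-switched constant regions Ighg2b and Ighg2c were at 6.77 and 6.48 FPKM in the old-host and 0.344 and 1.38 FPKM in the young-host tumor, and Ighg1 at 1.35 FPKM in the old-host tumor and listed at 0 in the young-host tumor. Igha, the constant region of mucosal antibodies, went the other way, at 1.39 FPKM in the old-host against 2.38 FPKM in the young-host tumor.

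Of 217 variable segments with a row of their own, 72 were higher in the old-host tumor, 8 lower and 137 equal, with no filter. The filter left 29, of which 20 passed through the old-host tumor alone and 1 through the young-host tumor alone, so zeros among the 29 do not count as further differences. The summed level of the 29 was 90.9 FPKM in the old-host, 6.64 FPKM in the young-host and 29.9 FPKM in the NMN-before old-host tumor. Ighv1-53 had 19.2 FPKM in the old-host and 0.329 FPKM in the young-host tumor, an estimated 41.4 and 1.04 fragments. Igkv4-55 had 18.8 FPKM in the old-host and 0.289 FPKM in the young-host tumor, an estimated 46.5 and 1.03 fragments. Those 2 segments were the highest in the old-host tumor, and Igkv3-2 came next at 7.32 FPKM in the old-host against 0.291 FPKM in the young-host tumor. Variable segments are near-identical copies whose fragments the counting can split, so single rows are uncertain. Jchain, the joining chain of secreted IgM and IgA, had 2.13 FPKM in the old-host and 0.692 FPKM in the young-host tumor, and T and NK cell markers had a median of 0.02 over 7 measured, 4 higher and 3 lower. The B and plasma cell list had 8 of 24 rows measured, with a median of 1.44, and 1 of the 8 reached 1 FPKM in the old-host tumor alone. With no filter, 15 of the 24 were higher and 9 lower. This list holds constant regions described above. Its summed level was 135 FPKM in the old-host tumor, where the 6 measured constant regions summed to 128 FPKM.

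**Figure D2:**
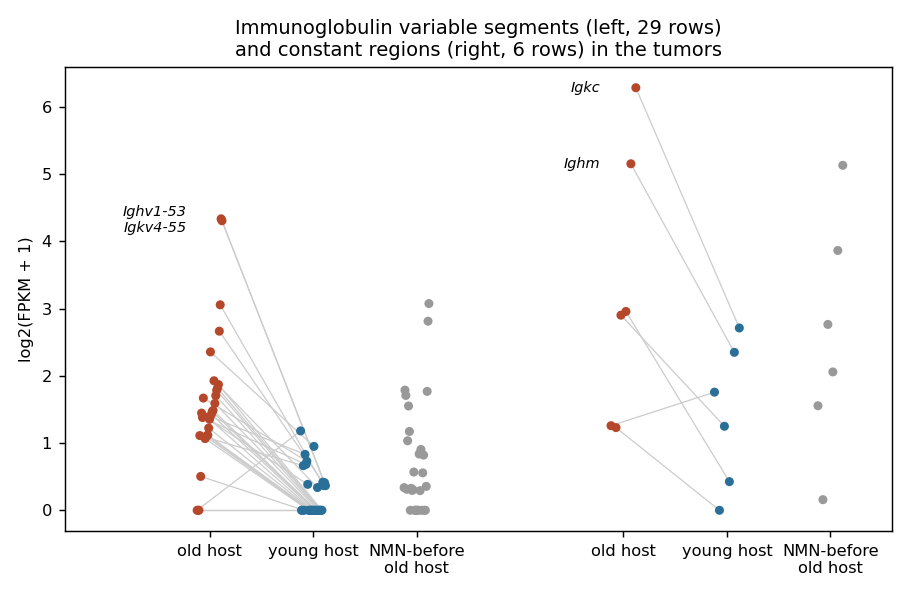
Levels in log2(FPKM + 1) of 29 immunoglobulin variable segments (left) and 6 constant regions (right) in the old-host, young-host and NMN-before old-host tumors, with lines joining each row's old-host and young-host values. In the old-host tumor Igkc and Ighm stand highest among constant regions, and Ighv1-53 and Igkv4-55 stand apart from the other variable segments.

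Oligodendrocyte markers split by maturity. Myelinating oligodendrocytes, the mature cells that wrap axons, had 13 of 21 markers higher and 8 lower, with 5 of them 2-fold higher and a median of 0.51. All 5 are expressed by mature oligodendrocytes. Klk6, a myelin-associated protease, had 4.39 FPKM in the old-host and 0.8404 FPKM in the young-host tumor, Ermn, a cytoskeletal protein of the myelin sheath, 3.87 FPKM in the old-host and 0.836 FPKM in the young-host tumor, and the nodal link protein Hapln2 5.35 FPKM in the old-host and 1.63 FPKM in the young-host tumor. Apod, a lipid carrier, had 157 FPKM in the old-host and 65.9 FPKM in the young-host tumor, and Mobp, a structural protein of compact myelin, 54.1 FPKM in the old-host and 24.6 FPKM in the young-host tumor. Cnp, the myelin phosphodiesterase and the most abundant of the list, lay on the other side at 193 FPKM in the old-host against 346 FPKM in the young-host tumor.

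Newly formed oligodendrocytes, the stage between precursor and myelinating cell, had 9 of 12 markers lower, with a median of -0.38. Bmp4, a morphogen that this stage expresses, had 0.537 FPKM in the old-host, 4.196 FPKM in the young-host and 0.612 FPKM in the NMN-before old-host tumor. Enpp6, a choline phosphodiesterase that marks new oligodendrocytes, had 10.2 FPKM in the old-host and 19.8 FPKM in the young-host tumor. The adaptor protein Bcas1 had 261 FPKM in the old-host and 396 FPKM in the young-host tumor, Nkx2-2, a transcription factor of the lineage, 29.8 FPKM in the old-host and 45.3 FPKM in the young-host tumor, and the receptor Gpr17 187 FPKM in the old-host and 269 FPKM in the young-host tumor. All of these were lower in the old-host tumor. The 5 genes of mature oligodendrocytes were named for being 2-fold higher, and 8 of the 21 myelinating markers were lower. The summed level of the myelinating list was 987 FPKM in the old-host and 1022 FPKM in the young-host tumor. That of the newly formed list was 539 FPKM in the old-host and 791 FPKM in the young-host tumor. Zfp488, an oligodendrocyte zinc finger gene outside the lists and picked here after its value was seen, was at 0.425 FPKM in the old-host, 4.46 FPKM in the young-host and 0.1796 FPKM in the NMN-before old-host tumor.

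Vascular markers lay on both sides of 0. Angiogenic endothelium, the sprouting cells of growing vessels, had 11 of 12 markers lower, none 2-fold, and a median of -0.25. Plvap, a protein of leaky fenestrated vessels, had 1.201 FPKM in the old-host and 2.38 FPKM in the young-host tumor, Esm1, a tip-cell proteoglycan, 2.45 FPKM in the old-host and 3.88 FPKM in the young-host tumor, and Mcam, an adhesion molecule, 13.1 FPKM in the old-host and 19.3 FPKM in the young-host tumor. Blood-brain barrier endothelium had 9 of 15 markers higher, with a median of 0.11. Its organic anion transporter Slco1a4 had 8.93 FPKM in the old-host and 4.45 FPKM in the young-host tumor, while its glucose transporter Slc2a1, also a hypoxia gene, had 24.5 FPKM in the old-host and 43.6 FPKM in the young-host tumor. General endothelial markers had a median of -0.06, and Cdh5, the endothelial cadherin, had 2.27 FPKM in the old-host and 3.44 FPKM in the young-host tumor.

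Mural cells, the pericytes and smooth muscle around vessels, had a median of -0.12 with 9 of 15 markers lower. Ndufa4l2, a mitochondrial protein of pericytes that hypoxia induces, had 3.37 FPKM in the old-host and 7.03 FPKM in the young-host tumor. Rgs5, a pericyte signaling regulator and the most abundant of the list, was at 25.5 FPKM in the old-host against 20.4 FPKM in the young-host tumor. Fibroblast markers were lower for 10 of 14 with a median of -0.25, and 2 of them were 2-fold lower. These were the type I collagen chains, Col1a1 at 0.737 FPKM in the old-host against 3.87 FPKM in the young-host tumor and Col1a2 at 1.29 FPKM in the old-host against 3.99 FPKM in the young-host tumor. In the NMN-before old-host tumor the same chains had 4.503 and 4.47 FPKM, close to the young-host tumor. Erythroid genes, the hemoglobin and heme genes of red blood cells, were higher for 5 of 5 with a median of 0.41, and the beta-globin gene Hbb-bs had 147 FPKM in the old-host and 111 FPKM in the young-host tumor. Of these 5, 1 reached 1 FPKM in the old-host tumor alone. With no filter, 7 of 10 erythroid genes were higher, 1 lower and 2 equal.

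Choroid plexus, the epithelium that makes cerebrospinal fluid, showed 7 of 9 measured markers higher, of which 1 was 2-fold. Of these 9, 3 reached 1 FPKM in the old-host tumor alone, so the filter fixed their direction. Over all 17 listed genes with a row of their own and with no filter, 15 were higher and 2 lower. Ttr, transthyretin (chromosome 18, 20665280 to 20674321, GRCm38, plus strand), had 151 FPKM in the old-host, 23.97 FPKM in the young-host and 9.01 FPKM in the NMN-before old-host tumor. Enpp2 (autotaxin) had 60.7 FPKM in the old-host and 37.8 FPKM in the young-host tumor, and oligodendrocytes express it too. Without Ttr, the other 8 differed by between -0.76 (Aqp1, a water channel, 0.606 FPKM in the old-host and 1.71 FPKM in the young-host tumor) and 0.67. Ependymal cells had 4 of 18 markers measured, with Foxj1, the factor of motile cilia, at 3.996 FPKM in the old-host against 3.08 FPKM in the young-host tumor. Reactive astrocyte markers were split, 11 higher and 8 lower, with a median of 0.03, and Gfap, the astrocyte filament, had 2237 FPKM in the old-host and 2698 FPKM in the young-host tumor.

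Tissues outside the brain left little signal. The 7 pituitary hormone genes with a row of their own were under 1 FPKM in every tumor, and 2 of 9 skeletal muscle genes were measured, Mylpf, a myosin light chain, at 1.301 FPKM in the old-host against 2.31 FPKM in the young-host tumor. Of 3 measured skin keratinocyte genes, keratin Krt5 was listed at 0 in the old-host and the NMN-before old-host tumor and had 1.85 FPKM in the young-host tumor. Dmkn, a secreted epidermal protein, went the other way with 1.81 FPKM in the old-host and 0.389 FPKM in the young-host tumor, and keratin Krt10 had 4.29 FPKM in the old-host and 5.76 FPKM in the young-host tumor.

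Secreted factors were described over 607 genes, of which 365 were measured, 221 higher and 144 lower in the old-host tumor. Of these, 14 (3.84%) were 2-fold higher and 8 (2.19%) 2-fold lower, and their median difference was 0.09. Some called genes, such as Oxt, Cxcl13, Bmp4 and Il6, reached 1 FPKM in 1 tumor alone, so the filter fixed their direction. Neuropeptide precursors made up 8 of the 14 and 2 of the 8, and over their 26 measured members 17 were higher and 9 lower, with a median of 0.40. Of these 26, 4 reached 1 FPKM in the old-host tumor alone and 1 in the young-host tumor alone. With no filter, 24 of 45 precursors were higher, 13 lower and 8 equal. Beside the precursors already described, Nts (neurotensin) had 1.55 FPKM in the old-host and 0.258 FPKM in the young-host tumor, and Tac2 (neurokinin B) had 2.33 FPKM in the old-host and 0.625 FPKM in the young-host tumor. The 2 that were 2-fold lower are peptides that cortical and activity-driven neurons express. Cck, cholecystokinin, had 8.897 FPKM in the old-host, 20.6 FPKM in the young-host and 47.3 FPKM in the NMN-before old-host tumor. Vgf, a precursor that neuronal activity induces, had 7.27 FPKM in the old-host, 17.1 FPKM in the young-host and 35.6 FPKM in the NMN-before old-host tumor. Both were highest in the NMN-before old-host tumor. In the GIC cultures Vgf had 10.7 FPKM from the old host and 18.97 FPKM from the young host. The tumor line thus expresses Vgf too, and its difference cannot be read as one of neurons alone.

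Granins and the enzymes that cut prohormones were higher for 8 of 10, none 2-fold, with a median of 0.20. Scg2, secretogranin II, had 15.1 FPKM in the old-host and 7.397 FPKM in the young-host tumor, and Cpe, the carboxypeptidase that trims peptides, 545 FPKM in the old-host and 437 FPKM in the young-host tumor. Axon guidance ligands, the cues that steer growing neurites, were higher for 20 of 22, again none 2-fold, with a median of 0.27. The ephrins Efnb3, Efna1 and Efnb1 were at 10.7, 7.03 and 5.98 FPKM in the old-host tumor and 5.499, 3.68 and 3.26 FPKM in the young-host tumor. Reln, the secreted glycoprotein that positions neurons, had 14.9 FPKM in the old-host and 8.58 FPKM in the young-host tumor. The 2 lower ligands were class 3 semaphorins, Sema3b at 4.67 FPKM in the old-host against 9.08 FPKM in the young-host tumor and Sema3f at 0.6798 FPKM in the old-host against 1.96 FPKM in the young-host tumor.

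Angiogenic factors were lower for 12 of 16, with a median of -0.20, none 2-fold. Vegfa, the main growth signal for vessels, had 67.6 FPKM in the old-host and 90.2 FPKM in the young-host tumor, and the placental growth factor Pgf had 1.91 FPKM in the old-host and 2.91 FPKM in the young-host tumor. Adrenomedullin (Adm), a vasodilator peptide that hypoxia induces, had 1.35 FPKM in the old-host and 2.35 FPKM in the young-host tumor. The endothelial markers of sprouting vessels and the factors that drive sprouting thus lay on the same side of 0, although both lists hold Esm1, Pgf and Apln.

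Matrix-modifying enzymes accounted for 3 of the 8 lower secreted genes. Lox, the collagen crosslinker, had 0.347 FPKM in the old-host and 2.66 FPKM in the young-host tumor, Mmp3, a stromelysin, 0.268 FPKM in the old-host and 2.05 FPKM in the young-host tumor, and Mmp10, its close relative, 0.0562 FPKM in the old-host and 1.64 FPKM in the young-host tumor. Over all 47 measured proteases and inhibitors, 26 were higher and 21 lower, with a median of 0.05. Cst3, the protease inhibitor cystatin C and the most abundant of the list, had 3541 FPKM in the old-host and 3292 FPKM in the young-host tumor. Proteoglycans and matrix glycoproteins were lower for 37 of 58, with a median of -0.14. Their 2 members past 2-fold were both higher, Hapln2, named above among myelin genes, and the testican Spock3 at 4.53 FPKM in the old-host against 1.29 FPKM in the young-host tumor. Postn, periostin of activated stroma, had 1.89 FPKM in the old-host and 4.43 FPKM in the young-host tumor.

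Interleukins, interferons and TNF ligands were higher for 11 of 18 and lower for 7, with a median of 0.25 that changed sign or went to 0 with no filter and with a filter of 5 FPKM. The 1 member past 2-fold was lower. This was Il6, a cytokine of inflammation, which had 0.217 FPKM in the old-host, 1.77 FPKM in the young-host and 0.132 FPKM in the NMN-before old-host tumor. Mif, a constitutively secreted cytokine at a much higher level, had 307 FPKM in the old-host and 479 FPKM in the young-host tumor. Higher members were Il33, an alarmin of glia, with 6.32 FPKM in the old-host and 3.104 FPKM in the young-host tumor, and Il1a, an inflammatory cytokine, with 2.27 FPKM in the old-host and 0.798 FPKM in the young-host tumor. Of 21 measured chemokines 16 were higher and 1 was 2-fold higher, with a median of 0.20. That 1 was Cxcl13, a chemokine that recruits B cells, at 1.499 FPKM in the old-host tumor, an estimated 16.8 fragments, and listed at 0 in the young-host tumor. Ccl12 and Ccl8, chemokines that recruit monocytes, had 11.7 and 4.88 FPKM in the old-host and 6.22 and 2.57 FPKM in the young-host tumor. Cxcl1, which recruits neutrophils, went the other way at 0.113 FPKM in the old-host against 1.03 FPKM in the young-host tumor. Complement genes were higher for 10 of 12, with a median of 0.22, and C3, the central component, had 6.12 FPKM in the old-host and 3.29 FPKM in the young-host tumor.

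Growth factors of the other classes stayed within 2-fold with the exception of Bmp4, given above. Ligands of receptor tyrosine kinases were higher for 16 of 23 with a median of 0.12. Pdgfa, a ligand of the glioma receptor PDGFRA, had 16.4 FPKM in the old-host and 25.2 FPKM in the young-host tumor, Fgf1 4.47 FPKM in the old-host and 2.28 FPKM in the young-host tumor, and pleiotrophin (Ptn), the most abundant of the list, 281 FPKM in the old-host and 211 FPKM in the young-host tumor. Among IGF-binding proteins Igfbp2, which gliomas often express, had 96.9 FPKM in the old-host and 63.9 FPKM in the young-host tumor. WNT ligands and antagonists had a median of 0.02, with Wnt7a at 10.02 FPKM in the old-host against 5.63 FPKM in the young-host tumor. Among secreted synapse organizers, Cbln2, which links neurexins to postsynaptic receptors, had 1.37 FPKM in the old-host and 5.197 FPKM in the young-host tumor, and C1ql1, a related protein, had 109 FPKM in the old-host and 182 FPKM in the young-host tumor.

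**Figure D3:**
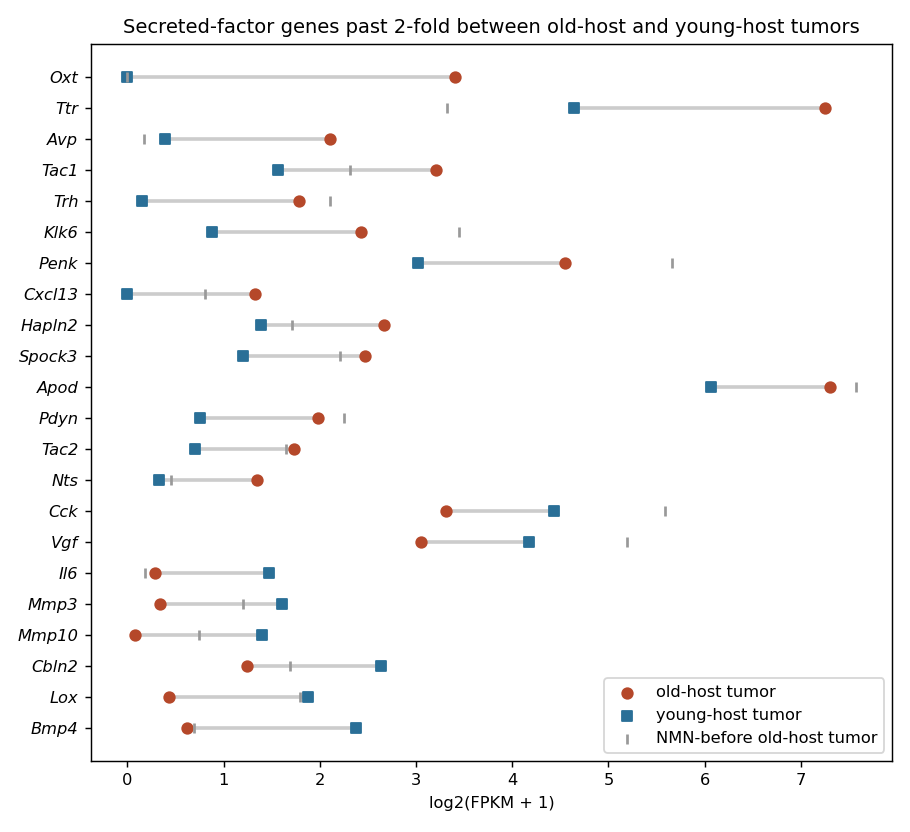
Levels in log2(FPKM + 1) of the 22 secreted-factor genes past 2-fold between the old-host and young-host tumors, ordered by difference, with the NMN-before old-host tumor as a gray tick. The 14 upper genes are higher in the old-host tumor and the 8 lower ones are lower in it, and Ttr, Oxt and Avp are among those highest in the old-host tumor of all 3.

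Gene families were defined by symbol patterns, and 72 of 76 had 6 or more measured members. The lowest medians belonged to stimulus-induced transcription factors, small RNAs, S100 proteins, collagens, small nucleolar RNA host genes and the proteasome. AP-1 and NR4A factors, which cells switch on within minutes of a stimulus, were lower for all 12 members with a median of -0.52. Fosb had 1.64 FPKM in the old-host and 6.33 FPKM in the young-host tumor, Atf3 6.01 FPKM in the old-host and 11.9 FPKM in the young-host tumor, Nr4a1 26.2 FPKM in the old-host and 42.8 FPKM in the young-host tumor and Junb 19.6 FPKM in the old-host and 31.6 FPKM in the young-host tumor. Jund, the member that is expressed without a stimulus, was the closest at 95.2 FPKM in the old-host against 97.9 FPKM in the young-host tumor.

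S100 proteins, small calcium-binding proteins, were lower for 9 of 11 rows with a median of -0.29, where the pattern also caught S100pbp, a binding protein. S100a6 had 298 FPKM in the old-host and 689 FPKM in the young-host tumor, and the cultured GICs had 99.9 FPKM from the old host and 244 FPKM from the young host. S100a6 was thus 2-fold lower in both pairs of libraries. S100a16 and S100a1 had 253 and 268 FPKM in the old-host and 388 and 357 FPKM in the young-host tumor. Collagens were lower for 18 of 27 with a median of -0.25. Col3a1 is not among the 27, since it shares its row with AC125167.1. That row had 0.761 FPKM in the old-host, 8.95 FPKM in the young-host and 7.82 FPKM in the NMN-before old-host tumor, a difference of -2.50. Beyond type I, the chains of type VI were lower, Col6a1 at 9.81 FPKM in the old-host against 16.1 FPKM in the young-host tumor and Col6a2 at 3.304 FPKM in the old-host against 6.57 FPKM in the young-host tumor. Col23a1, a transmembrane collagen, was on the other side at 11.9 FPKM in the old-host against 6.02 FPKM in the young-host tumor.

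Proteasome genes were lower for 38 of 41 with a median of -0.19 and a range from -0.53 to 0.03. Psmb9 and Psmb8, the subunits that interferon adds to the immunoproteasome, had 31.7 and 153 FPKM in the old-host and 46.3 and 202 FPKM in the young-host tumor. The constitutive subunit Psmb3 had 302 FPKM in the old-host and 433 FPKM in the young-host tumor. The pattern also caught Psmc3ip, a recombination protein, at 23.1 FPKM in the old-host against 31.02 FPKM in the young-host tumor. Small nucleolar and Cajal body RNAs had a median of -0.40 over 22 rows, but 10 of them were listed at 0 in the old-host tumor with values from 3.11 FPKM (Snora62) to 457 FPKM (Snord49b) in the young-host tumor, and 3 the other way round. These RNAs are shorter than the sequenced fragments, so their FPKM is unstable. Their host genes, which are long transcripts, were lower for 7 of 8, with Snhg7 at 9.05 FPKM in the old-host against 16.9 FPKM in the young-host tumor and Snhg9 at 17.5 FPKM in the old-host against 29.5 FPKM in the young-host tumor.

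The highest medians were those of receptors of immune cells and neurons and of ephrins. Fc receptors, several of which bind antibodies on microglia and macrophages, were higher for 7 of 7 rows with a median of 0.61. The rows also hold Fcer1g, a signaling chain, and Fcgrt, the neonatal Fc receptor. Fcgr4 had 7.74 FPKM in the old-host and 4.31 FPKM in the young-host tumor, Fcrls, a microglial relative, 12.1 FPKM in the old-host and 6.98 FPKM in the young-host tumor, and Fcgr1 5.08 FPKM in the old-host and 2.78 FPKM in the young-host tumor. Toll-like receptors were higher for 5 of 6, and the RNA sensor Tlr7, encoded on the X chromosome, had 4.12 FPKM in the old-host and 1.55 FPKM in the young-host tumor. Ephrins were higher for 7 of 7 with a median of 0.49, from Efna2 at 0.04 to Efnb3 at 0.85.

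GABA-A receptor subunits were higher for 11 of 12 with a median of 0.44, and Gabrb1 had 2.54 FPKM in the old-host and 0.857 FPKM in the young-host tumor. Metabotropic glutamate receptors were higher for 6 of 6 with a median of 0.35, and Grm3, which glia also express, had 5.42 FPKM in the old-host and 3.402 FPKM in the young-host tumor. Serotonin, dopamine and adrenergic receptors were higher for 11 of 14 rows, 2 of which are receptor kinases (Adrbk1 and Adrbk2). The serotonin receptor Htr2c, abundant in choroid plexus and in the basal ganglia, had 1.96 FPKM in the old-host and 0.302 FPKM in the young-host tumor. The microRNA family was in the highest group with a median of 0.33 over 7 rows, which mixes short precursors listed at 0 in 1 library with long host transcripts such as Mir142hg at 1.44 FPKM in the old-host against 0.546 FPKM in the young-host tumor.

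Outside the lists, the largest differences among coding genes that reached 5 FPKM in a tumor added a few names. Zcchc12, a transcriptional coactivator on the X chromosome (36195904 to 36199158, GRCm38, plus strand), had 10.9 FPKM in the old-host, 2.12 FPKM in the young-host and 2.005 FPKM in the NMN-before old-host tumor. Nnat, neuronatin, an imprinted gene, had 16.6 FPKM in the old-host and 5.09 FPKM in the young-host tumor, Tmem130 12.4 FPKM in the old-host and 3.34 FPKM in the young-host tumor, and Resp18, a secretory granule protein of endocrine and neuronal cells, 19.4 FPKM in the old-host and 7.16 FPKM in the young-host tumor. Cdo1, the cysteine dioxygenase of astrocytes and liver, had 6.78 FPKM in the old-host and 1.97 FPKM in the young-host tumor, and Nrsn2, a neuronal vesicle protein, 7.98 FPKM in the old-host and 2.49 FPKM in the young-host tumor. Gm364 on the X chromosome had 6.73 FPKM in the old-host and 2.24 FPKM in the young-host tumor, and was also 2-fold higher in the GIC pair. Among the lowest, Cdkn1c, a cyclin-dependent kinase inhibitor and imprinted gene, had 8.53 FPKM in the old-host, 39.02 FPKM in the young-host and 21.1 FPKM in the NMN-before old-host tumor. Aldh1a3, an enzyme of retinoic acid synthesis, had 3.03 FPKM in the old-host and 12.04 FPKM in the young-host tumor, Bfsp2, a filament protein first known from the lens, 4.34 FPKM in the old-host and 15.7 FPKM in the young-host tumor, and Kif19a, a kinesin of cilia, 5.19 FPKM in the old-host and 16.3 FPKM in the young-host tumor. Insl6, a relaxin-like peptide, had 6.95 FPKM in the old-host and 22.6 FPKM in the young-host tumor, Papss2, the sulfate donor synthase, 3.899 FPKM in the old-host and 10.1 FPKM in the young-host tumor, and Rasl11a, a small GTPase, 9.42 FPKM in the old-host and 24.3 FPKM in the young-host tumor. Strc, the stereocilin of inner ear hair cells, had 2.44 FPKM in the old-host and 7.099 FPKM in the young-host tumor.

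The level of a gene in the GIC cultures, which hold the tumor line without its host tissue, was set against its tumor difference. The tables were normalized separately, so the GIC level served only to sort genes. Coding genes that stayed under 0.1 FPKM in all 3 cultures had a median tumor difference of 0.27 over 496 genes, with 77.8% higher in the old-host tumor, 29 of them 2-fold higher and 9 2-fold lower. From 0.1 to 1 FPKM in culture the median was 0.18 over 1109 genes, from 1 to 5 FPKM 0.06 over 1806, and from 5 to 20 FPKM -0.0001 over 3832. At 20 FPKM or more in culture it was -0.08 over 4707 genes, 34.6% of them higher, with 2 genes 2-fold higher and 6 2-fold lower. The tumor difference therefore fell stepwise with the gene's level in the cultured tumor line. It also fell with the level in the tumors themselves. Autosomal coding genes that reached 1, 5 and 20 FPKM in a tumor had medians of -0.02, -0.04 and -0.07, with 46.5%, 42.7% and 36.4% higher. The level in culture and the level in the tumors were not separated here. Among genes at 1 FPKM or more in both tables, 47.9% had the same sign of the old-host minus young-host difference in tumors and in GICs.

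Of the 129 coding genes called in the tumors, 45 reached 1 FPKM in the cultures, and 29 of these had the same sign there, 15 of 19 among the higher and 14 of 26 among the lower. Called in both pairs were 4 genes, none in opposite directions. The share of all coding genes called in the GIC pair is not given here, so this count has no background. Gpnmb, at 0.92 in the tumors and -3.30 in the cultures, fell just short of a call in the tumors. The 4 genes were named after their values were seen. Pid1, an adaptor that binds a lipoprotein receptor, had 4.88 FPKM in the old-host and 1.37 FPKM in the young-host tumor, and in the cultures 1.82 FPKM from the old host and 0.128 FPKM from the young host. Igf2bp3, an RNA-binding protein of fetal tissue and tumors, had 0.252 FPKM in the old-host and 3.93 FPKM in the young-host tumor, and in the cultures 1.87 FPKM from the old host and 5.64 FPKM from the young host. The others were Gm364 and S100a6.

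**Figure D4:**
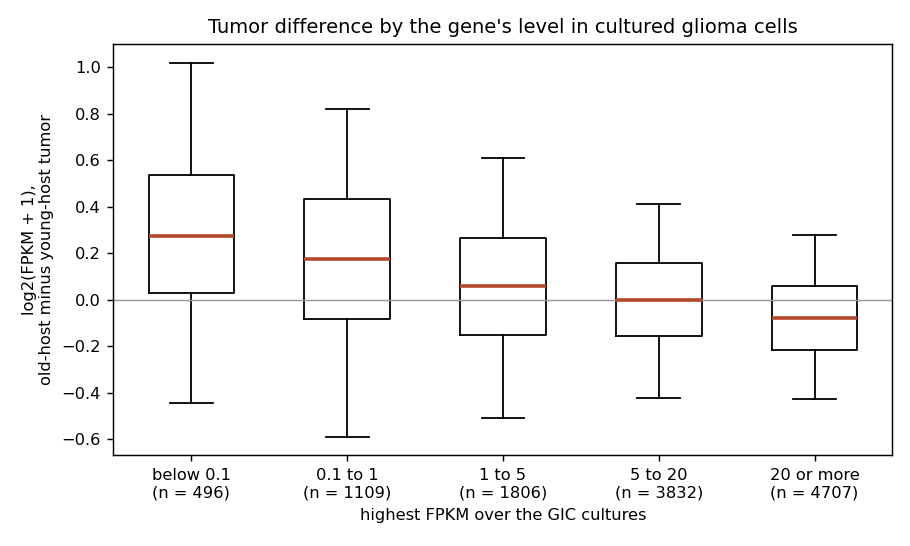
Tumor differences in log2(FPKM + 1), old-host minus young-host (y axis), of coding genes grouped by their highest FPKM over the GIC cultures (x axis). Boxes span the interquartile range, whiskers run between the 5% and 95% quantiles and colored bars are the medians, which fall from 0.27 for genes under 0.1 FPKM in culture to -0.08 for genes at 20 FPKM or more.

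Interferon-induced genes separated by interferon type. Type I interferons act through the transcription factor complex ISGF3 on promoter elements called ISREs, and type II interferon acts first through other elements, with IRF1 in a later wave on ISREs. Of 31 measured type I genes 26 were lower in the old-host tumor, none 2-fold, with a median of -0.39. Of 21 measured type II genes 12 were higher and 9 lower, with a median of 0.01. The core of the ISRE, GAAANNGAAA on either strand, was in 13 of the 22 type I promoters and 11 of the 20 type II promoters that RefSeq sequences covered, against 3.99% of 27025 promoters. The promoters run from 250 bases before to 50 bases after a gene's start, and a match is a description of these letters. Shown are the 3 type I genes with the largest differences among those with a match and 1 type II gene, on build GRCm38.p6 from RefSeq, 5′ to 3′ on the gene's strand, with matches to the core in capitals.
Rsad2, chr12:26456403-26456702, minus strand: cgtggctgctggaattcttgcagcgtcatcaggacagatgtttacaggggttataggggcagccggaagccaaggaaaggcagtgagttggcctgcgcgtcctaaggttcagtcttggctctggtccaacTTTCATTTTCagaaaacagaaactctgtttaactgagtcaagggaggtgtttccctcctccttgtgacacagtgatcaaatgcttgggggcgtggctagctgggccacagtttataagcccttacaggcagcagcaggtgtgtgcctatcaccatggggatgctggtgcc
Ifit3, chr19:34583279-34583578, plus strand: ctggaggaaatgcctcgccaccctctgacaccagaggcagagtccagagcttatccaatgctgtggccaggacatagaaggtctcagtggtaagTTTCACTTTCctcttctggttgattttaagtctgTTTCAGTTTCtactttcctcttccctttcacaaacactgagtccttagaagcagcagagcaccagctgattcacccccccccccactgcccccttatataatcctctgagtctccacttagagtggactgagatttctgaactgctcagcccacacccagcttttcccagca
Isg15, chr4:156200769-156201068, minus strand: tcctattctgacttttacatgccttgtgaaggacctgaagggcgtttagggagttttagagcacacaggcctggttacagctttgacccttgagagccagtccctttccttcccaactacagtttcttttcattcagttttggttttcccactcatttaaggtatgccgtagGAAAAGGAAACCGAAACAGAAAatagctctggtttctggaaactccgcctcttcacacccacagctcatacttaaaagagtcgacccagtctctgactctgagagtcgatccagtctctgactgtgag
Gbp3, chr3:142559794-142560093, plus strand: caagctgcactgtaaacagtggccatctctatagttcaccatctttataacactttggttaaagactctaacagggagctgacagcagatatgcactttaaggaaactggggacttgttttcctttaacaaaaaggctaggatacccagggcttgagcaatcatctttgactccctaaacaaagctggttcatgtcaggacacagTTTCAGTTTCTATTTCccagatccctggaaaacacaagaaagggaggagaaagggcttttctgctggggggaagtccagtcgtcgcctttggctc

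Rsad2 (viperin), an antiviral enzyme with 1 match in its promoter, had 5.75 FPKM in the old-host, 11.1 FPKM in the young-host and 6.41 FPKM in the NMN-before old-host tumor. Ifit3, an antiviral RNA-binding adaptor with 2 matches, had 24.2 FPKM in the old-host, 42.5 FPKM in the young-host and 19.02 FPKM in the NMN-before old-host tumor. Isg15, a ubiquitin-like modifier whose matches overlap in 1 run, had -0.77 as its difference. Gbp3, a GTPase that attacks pathogen vacuoles and carries 2 overlapping matches, had 78.5 FPKM in the old-host and 93.5 FPKM in the young-host tumor, a difference of -0.25. The type I genes with the core had a median of -0.43 over 13 measured and those without it -0.31 over 8, while the type II medians were -0.24 over 7 with the core and -0.01 over 8 without it. The GTPase Irgm1, the most abundant of the type II list, had 188 FPKM in the old-host and 221 FPKM in the young-host tumor, and the chemokine gene Cxcl9 12.7 FPKM in the old-host and 10.5 FPKM in the young-host tumor. Among the 3 most abundant genes of the type I list, Bst2, which tethers viruses to the cell, was at 96.5 FPKM in the old-host against 127 FPKM in the young-host tumor, Ifitm3, a membrane protein that blocks virus entry, at 247 FPKM in the old-host against 253 FPKM in the young-host tumor, and Ifi27 at 367 FPKM in the old-host against 339.7 FPKM in the young-host tumor. Several Ifit, Oas and Gbp genes have near-identical copies, so single rows are uncertain.

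Hypoxia-induced genes were lower for 21 of 27, 2 of them 2-fold, with a median of -0.36. P4ha2, a collagen prolyl hydroxylase subunit, had 2.94 FPKM in the old-host and 7.68 FPKM in the young-host tumor, and the other was Lox, given above. Pdk1, the kinase that shuts pyruvate out of mitochondria, had 7.87 FPKM in the old-host and 15.9 FPKM in the young-host tumor, and Ankrd37, a small HIF target, 3.26 FPKM in the old-host and 6.47 FPKM in the young-host tumor. In the NMN-before old-host tumor these 3 had 7.06, 12.9 and 9.23 FPKM. The old-host tumor was thus the lowest of the 3 libraries for each. Glucocorticoid-induced genes were lower for 10 of 15 with a median of -0.23, and the metallothionein Mt2 had 293 FPKM in the old-host and 468 FPKM in the young-host tumor.

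The circadian clock list differed little, with 7 of 18 genes higher, 11 lower, none 2-fold and a median of -0.07. The activators were slightly higher, Arntl by 0.25, Clock by 0.21 and Npas2 by 0.41. The period and cryptochrome repressors were lower. Per1 had 13.1 FPKM in the old-host and 25.1 FPKM in the young-host tumor, a difference of -0.88, and Per2, Per3, Cry1 and Cry2 had differences of -0.28, -0.07, -0.26 and -0.21. Per1 is also a glucocorticoid target and an immediate early gene. The nuclear receptors Nr1d1 and Nr1d2, which repress Arntl, were higher by 0.11 and 0.53. The output factors Dbp, Tef, Hlf and Nfil3 differed by 0.03, -0.08, -0.20 and 0.16. The feedback repressors Bhlhe40, Bhlhe41 and Ciart differed by -0.11, -0.04 and -0.39. The time of day at collection is not given in the sources used here.

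Stem cell factors were higher for 14 of 19 with a median of 0.19, led by the surface protein Prom1 (CD133) at 8.32 FPKM in the old-host against 4.17 FPKM in the young-host tumor and the neural factor Pou3f2 at 6.49 FPKM in the old-host against 3.66 FPKM in the young-host tumor. The summed level of the stem cell list was 879 FPKM in the old-host and 883 FPKM in the young-host tumor. Glioma drivers were higher for 11 of 23 and lower for 12, none 2-fold. Their median of -0.01 turned positive under both rescalings tried, and their summed level was 1372 FPKM in the old-host and 1591 FPKM in the young-host tumor. Among the higher ones, the cell cycle gene Ccnd2 had 23.2 FPKM in the old-host and 12.3 FPKM in the young-host tumor, and Mycn 2.77 FPKM in the old-host and 1.34 FPKM in the young-host tumor. Genes of the integrated stress response, the program that ATF4 runs under amino acid or protein stress, were higher for 12 of 20 with a median of 0.16. The cystine transporter Slc7a11 had 24.5 FPKM in the old-host and 14.1 FPKM in the young-host tumor, and the serine synthesis enzyme Phgdh 281 FPKM in the old-host and 213 FPKM in the young-host tumor.

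Chromosomes differed in their medians. The X chromosome had a median difference of 0.20 over 403 coding genes, with 80.6% higher in the old-host tumor, while chromosomes 1 to 19 lay between -0.12 (chromosome 15) and 0.08 (chromosome 12). In the GIC pair, which shares no library with the tumors, the X median was 0.25 over 364 genes, with 79.4% higher in the old-host culture. Chromosomes 1 to 19 lay between -0.13 (chromosome 8) and 0.21 (chromosome 10) there, so X stood less apart than in the tumors, and chromosome 15, the lowest in the tumors, had 0.11. The 5 measured Y genes had medians of -0.04 in the tumors and 0.38 in the cultures. Cut into 9 windows of 20 Mb along the X chromosome, the tumor medians ran from 0.16 to 0.26, above 0 in each. Among X genes that reached 20 FPKM in a tumor, the median was 0.17 over 122, against -0.07 over 4534 autosomal genes. The X difference also fell with the level in culture. Its median was 0.39 over 16 X genes under 0.1 FPKM, 0.38 over 31 from 0.1 to 1 FPKM, 0.24 over 80 from 1 to 5 FPKM, 0.21 over 145 from 5 to 20 FPKM and 0.14 over 131 at 20 FPKM or more. The lowest of these bins holds under 20 genes. Of the 403 X genes, 6 were 2-fold higher and 1 was 2-fold lower, against 0.653% and 0.427% of all coding rows. The 6 were Zcchc12, Gm364, Gpr34, Htr2c, Tlr7 and Rab33a.

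Genes that report on sex chromosomes were present in both tumors. The Y-linked genes Eif2s3y and Ddx3y, a translation factor and an RNA helicase, had 50.8 and 21.2 FPKM in the old-host and 60.1 and 23.1 FPKM in the young-host tumor. Uty and Kdm5d, members of histone demethylase families, had 11.1 and 14.9 FPKM in the old-host and 10.7 and 12.8 FPKM in the young-host tumor. The row of Xist, the RNA of the inactive X chromosome, which it shares with Gm27733 and Gm27927, had 16.5 FPKM in the old-host and 8.54 FPKM in the young-host tumor. In the cultures the row had 0.512 FPKM from the old host and 0.0894 FPKM from the young host, while Eif2s3y had 41.1 and 36.98 FPKM there. The tumors thus held Y-linked and Xist RNA together, and the cultures almost none of the Xist row. The part of host sex and host tissue share in the X difference was not tested.

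On chromosome 15, 7 of 487 measured coding genes were 2-fold lower and none 2-fold higher. Over all coding rows the shares were 0.427% lower and 0.653% higher. Of the 7 genes, 2 neighbor each other in the 60 to 65 Mb window that also holds Myc, with 5 measured coding genes in all. Fam49b (63929097 to 64060478, GRCm38) had 46.2 FPKM in the old-host, 152 FPKM in the young-host and 53.2 FPKM in the NMN-before old-host tumor. Asap1 (64086857 to 64382919), a GTPase-activating protein of the cytoskeleton, had 17.5 FPKM in the old-host, 49.1 FPKM in the young-host and 20.2 FPKM in the NMN-before old-host tumor. Myc itself had 217 FPKM in the old-host and 383 FPKM in the young-host tumor, and in the cultures 381 FPKM from the old host and 381 FPKM from the young host. Not every gene of the window was lower. Fam84b had 6.23 FPKM in the old-host and 6.28 FPKM in the young-host tumor, and Adcy8, an adenylyl cyclase, 2.44 FPKM in the old-host and 1.49 FPKM in the young-host tumor. Farther along, Rrp7a, a ribosome biogenesis factor (83113433 to 83122801), had 58.1 FPKM in the old-host, 271 FPKM in the young-host and 62.1 FPKM in the NMN-before old-host tumor. Its neighbor Serhl, whose annotated span overlaps it, had 20.9 FPKM in the old-host and 51.9 FPKM in the young-host tumor. For Fam49b, Asap1 and Rrp7a the young-host tumor stood apart from both other tumors, and the culture differences were 0.34, -0.23 and 0.53.

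**Figure D5:**
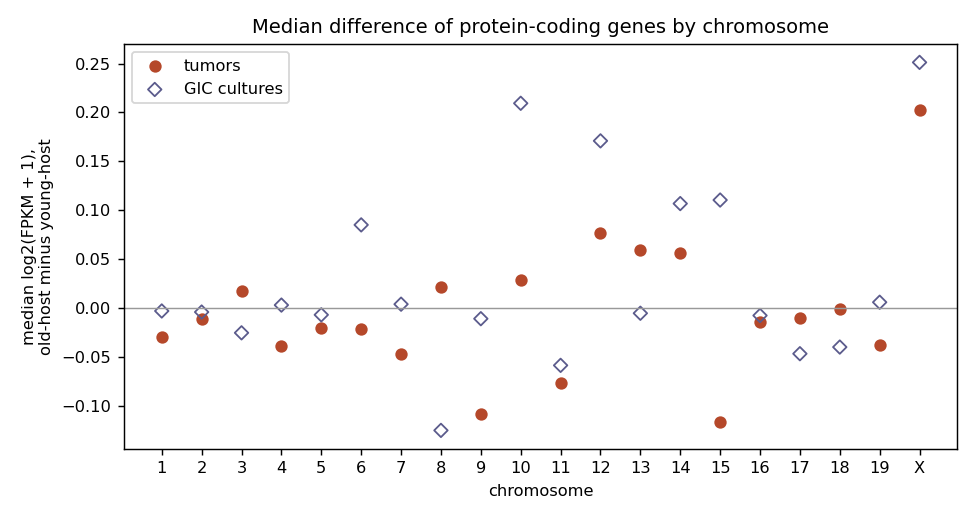
Median old-host minus young-host difference in log2(FPKM + 1) of coding genes on chromosomes 1 to 19 and X (x axis), for tumors (filled circles) and GIC cultures (open diamonds). Among the chromosomes plotted, X stands highest in both pairs of libraries, at 0.20 in tumors and 0.25 in cultures.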

How the data were processed

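RNA was measured in 6 libraries, 1 for each host group of tumors and of GIC cultures, and the comparison uses the old-host and the young-host tumor. Per the labels' protocols, libraries were made with a stranded kit after ribosomal RNA depletion and read in pairs. The submitters' processing notes name build GRCm38. For software they name STAR 2.5.4b, Cuffdiff and Cufflinks 2.2.1, Trim Galore 0.6.2, and bcl2fastq 1.8.4, without their roles. The authors deposited FPKM values in 1 table for tumors and 1 for GICs. Whether counting used strand is not given in the sources used here, so overlapping and antisense genes are uncertain, as are near-identical copies.

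From the deposited FPKM values, log2(FPKM + 1) differences were computed with Python 3.11.15, pandas 2.3.3 and numpy 2.4.6. They understate changes of low genes. Rows were matched to GENCODE by symbol and locus for gene type and coordinates, and lists and families used rows that name 1 gene. Named genes were the 15 highest and 15 lowest coding genes whose higher tumor value was 5 FPKM or more, up to 5 members with the largest differences per list or family, the most abundant member of cell content lists, every called secreted factor, clock genes and fixed tumor and sex genes. A few genes under this rule are not reported here. The members, lists and families were chosen with earlier results of these data known. Depth came from single-transcript genes of 1500 to 12000 bases, whose low FPKM values were whole multiples of 1 fragment within 0.05 for 97.8% (old-host) and 97.98% (young-host tumor) of values. The calculations were tested on simulated data. Alternatives were pseudocounts of 0.1 and 0.5, no filter and a filter of 5 FPKM, 2 rescalings, shared rows, coding rows only and a minimum of 20 fragments.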

Additional observations from a re-analysis of the deposited data

How the results depend on the processing

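The counts of 2-fold rows, higher and lower in the old-host tumor, depended on how low values were treated. They were 542 and 302 with a pseudocount of 0.1, 91 and 67 with a filter of 5 FPKM, 367 (higher) after rescaling to TPM, 78 and 51 over coding rows, and 99 and 52 with at least 20 estimated fragments. The median of genes under 0.1 FPKM in culture was 0.45 with a pseudocount of 0.1, 0.41 with a filter of 5 FPKM, 0.39 after rescaling to TPM and 0 with no filter, where most such genes are at 0 in every library. The X chromosome median was 0.0044 with no filter, for the same construction, and between 0.18 and 0.28 under the other alternatives. The called genes with the same sign in GICs numbered 71 with a pseudocount of 0.1, 47 with 0.5 and 44 after rescaling to TPM. Families with a positive median numbered 30 of 51 with a filter of 5 FPKM, against 49 of 72. List medians changed sign or went to 0 for 3 of 47 with no filter, 3 of 39 with a filter of 5 FPKM and 1 under each rescaling. Pericytes and smooth muscle and reactive astrocytes were among the 3 with a filter of 5 FPKM. Neutrophils, interleukins and plasma carriers were the 3 with no filter. With no filter the medians of 21 of 72 families, which then hold many rows at 0, moved to 0 or to the other sign, small nucleolar RNAs, Hox genes and microRNA genes among them, and with shared rows added those of 5, microRNA genes included. Of the 66 named genes past 2-fold, all 66 stayed past it under both rescalings. Rescaling to TPM raised every value, which acts in part like a smaller pseudocount. All 66 also stayed past it under both smaller pseudocounts, but these can only enlarge a difference, so that outcome was fixed in advance. Rescaling to TPM moved the median of all rows to 0.05, and the share of called rows that were higher was 67.2%, against 61.4% as deposited. No paired analysis was possible because each group is 1 library, and for the same reason no replicate could be left out. Depth limits genes under about 1 FPKM, where a transcript of 1 kb has about 11.3 fragments in the old-host library.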

Other observations

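The families here lay outside the extremes and were picked after their values were seen. Nuclear-encoded respiratory chain subunits were lower in the old-host tumor for 71 of 88 rows with a median of -0.15. Their 1 row past 2-fold was a pseudogene, Atp5k-ps2. Cytosolic ribosomal proteins were lower for 44 of 62 with a median of -0.09. As background for abundant genes, autosomal coding genes that reached 20 FPKM in a tumor had a median of -0.07, with 36.4% higher. The ribosomal values lie near that background, so they are not read as a result about this family. Ionotropic glutamate receptors were higher for 11 of 12, with the AMPA receptor subunit Gria1 at 7.57 FPKM in the old-host against 4.09 FPKM in the young-host tumor. Potassium channels were higher for 45 of 64 with a median of 0.23, and the calcium-activated channel Kcnn2 had 8.93 FPKM in the old-host and 4.09 FPKM in the young-host tumor. Cathepsins, lysosomal proteases, were higher for 9 of 11, with Ctsh at 36.4 FPKM in the old-host against 20.5 FPKM in the young-host tumor and Ctss at 213 FPKM in the old-host against 153 FPKM in the young-host tumor. All 6 measured class II MHC genes were higher but close, with a median of 0.08.

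Hox genes, which pattern the body axis and are normally silent in the forebrain, were measured for 9 members of the A cluster, 8 of them higher in the old-host tumor with a median of 0.30. Hoxa5 had 13.6 FPKM in the old-host and 8.16 FPKM in the young-host tumor, Hoxa9 2.31 FPKM in the old-host and 1.03 FPKM in the young-host tumor and Hoxa7 30.4 FPKM in the old-host and 24.4 FPKM in the young-host tumor. In the cultures, Hoxa5 had 17.7 FPKM from the old host and 16.3 FPKM from the young host. Etv4, a transcription factor downstream of receptor tyrosine kinases, was among the few 2-fold genes that the cultures also express highly, at 60.9 FPKM in the old-host against 29.1 FPKM in the young-host tumor, with 65.1 FPKM in the culture from the old host and 63.6 FPKM in that from the young host. Id4, an inhibitor of differentiation factors, had 21.9 FPKM in the old-host and 9.91 FPKM in the young-host tumor.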
